A study of Homo sapiens with 5 samples.

Results

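The genes for interferon beta (IFNB1) and interferon lambda (IFNL1, IFNL2 and IFNL3) were examined for ChIP-seq peaks of 2 transcription factors, IRF3 and Smad3. The cells were BT549, an established human cell line from a basal-like breast cancer. Members were the peaks inside or within 50 kb of these 4 genes among 20033 protein-coding genes of RefSeq (GRCh38). Of 19372 peaks in 5 libraries, 10 met that rule. They comprised 1 of 8067 IRF3 peaks in caSmad3 cells, 9 of 4125 IRF3 peaks in HA cells and 0 in each Smad3 library. The genes were selected on the presence and position of these same peaks, so the counts are a description and none of them was tested.

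All cells carried a lentiviral vector, which expressed either constitutively active Smad3 (caSmad3) or the control (HA). IRF3 was precipitated from caSmad3 cells and from HA cells, both transfected with polyI:C, a synthetic double-stranded RNA, and neither given TGF-beta. Smad3 was precipitated from caSmad3 cells that had received polyI:C and no TGF-beta. It was also precipitated from HA cells given TGF-beta at 1 ng/ml for 1.5 h after polyI:C or after mock transfection. Each group held 1 library, so no difference between groups could be set against replicate spread. The labels do not say whether each stable line was 1 clone or a pool. The Smad3 libraries held 6041 peaks in caSmad3 cells, 786 in HA cells after polyI:C and 353 in HA cells after mock transfection. The lists give positions without heights or reads, so depth is unknown and a missing peak does not measure missing binding.

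Interferon beta is the type I interferon that most cell types make first on sensing viral RNA. Cytoplasmic sensors of double-stranded RNA activate the kinases that phosphorylate IRF3, which then enters the nucleus and binds the IFNB1 enhancer just upstream of the start site. That enhancer is bound jointly by IRF proteins, NF-kB and the ATF2/c-Jun dimer. Interferons lambda are type III interferons, induced by the same sensors, and act through a receptor found mainly on epithelial cells. Smad3 carries the TGF-beta signal from the receptors to the genome.

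The IFNB1 and IFNL1 sequences are printed because an IRF3 peak of HA cells lay on each of them. The IFNL2 and IFNL3 stretches at the same distance from the start as the IFNL1 peak are printed for comparison, as no library had a peak there. All are RefSeq sequences of GRCh38.p14, 5′ to 3′ on the strand of the gene. For IFNB1 the stretch is the upstream part of the peak, from -177 to -1 (chr9:21077943-21078119, minus strand). Capitals mark 2 matches to the shorter IRF motif AANNGAAA and 1 to the NF-kB motif, which was searched as GGG and TTCC with any 3 bases between them.
IFNB1: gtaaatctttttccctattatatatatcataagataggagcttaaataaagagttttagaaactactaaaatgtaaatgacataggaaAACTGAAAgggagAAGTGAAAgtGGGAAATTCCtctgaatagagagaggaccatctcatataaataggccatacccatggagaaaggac
For the lambda genes each stretch runs from -225 to -120, at chr19:39296182-39296287 on the plus strand for IFNL1, chr19:39268171-39268276 on the plus strand for IFNL2 and chr19:39245370-39245475 on the minus strand for IFNL3. Capitals mark the IRF core motif, searched as GAAA and GAAA with any 2 bases between them and here matched on the opposite strand.
IFNL1: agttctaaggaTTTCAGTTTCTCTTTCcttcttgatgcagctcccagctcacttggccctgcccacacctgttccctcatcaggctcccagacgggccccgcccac
IFNL2: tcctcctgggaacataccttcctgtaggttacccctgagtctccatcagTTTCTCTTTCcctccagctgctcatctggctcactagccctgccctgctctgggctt
IFNL3: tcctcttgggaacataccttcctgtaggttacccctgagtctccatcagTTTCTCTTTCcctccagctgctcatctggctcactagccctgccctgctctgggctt

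IFNB1 (gene ID 3456, chr9:21077104-21077942, minus strand) had 0 IRF3 peaks within 50 kb in caSmad3 cells and 7 in HA cells. Of all protein-coding genes, 57.1% had at least 1 IRF3 peak so close in caSmad3 cells and 37.6% in HA cells. Over the genes of chromosome 9 the shares were 67.1% in caSmad3 cells and 47.0% in HA cells. Of all protein-coding genes with such a peak in HA cells, 4.4% had none in caSmad3 cells. At least 7 such peaks were listed for 1.34% of genes in caSmad3 cells and 0.424% in HA cells. IFNB1 was therefore without a peak in the list where most genes had one, and among the genes with the most peaks in the other.

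The 7 peaks of HA cells lay on both sides of IFNB1, a gene without introns, and 3 of them overlapped it. A peak overlapped the gene for 28.8% of protein-coding genes in caSmad3 cells and 15.1% in HA cells. Counted from the start site as +1 along the direction of transcription, the promoter peak ran from -177 to 18 (21077925 to 21078119, 195 bases). The transcribed part held a peak of 287 bases at 155 to 441 (21077502 to 21077788) and one of 156 bases at 504 to 659 (21077284 to 21077439). Peaks thus covered the enhancer, the start site and parts of the single exon.

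Downstream of the gene, a peak of 334 bases began 174 bases past the gene end (21076597 to 21076930). The next, of 263 bases, lay 818 bases past it (21076024 to 21076286). A further peak of 354 bases lay 6721 bases past it (21070030 to 21070383). This was the widest of the 7, and 83.5% of all IRF3 peaks of HA cells were narrower. The most distant was upstream, 184 bases wide and 18530 bases above the start site (21096472 to 21096655). It overlapped no RefSeq gene, and the interferon pseudogene IFNWP4 was within 10 kb of it. The other RefSeq genes within 50 kb of IFNB1 were HACD4, which encodes an enzyme of fatty acid elongation, the pseudogene IFNNP and a long non-coding RNA, and none of them had a peak within 10 kb in any library.

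The gaps between the 5 central peaks were 62 to 353 bases, whereas the outer peaks stood 5640 and 18352 bases apart from them. With peaks less than 1000 bases apart merged, the 7 peaks made 3 sites. The central site spanned 2096 bases (21076024 to 21078119), more than the 839 bases of the gene. Merging gave 3594 IRF3 sites in HA cells, of which 15 held at least 5 peaks. Of these 15 sites, 2 had no overlapping IRF3 peak in caSmad3 cells, the one at IFNB1 and one of 4441 bases over the antiviral gene IFIT2 (chr10:89305627-89310067). Among all single IRF3 peaks of HA cells, 17.2% had none. Merged sites are longer than single peaks, so 2 of 15 cannot be set against that share. Several of the 15 lay nearest to LOC102723475 on chromosome 21 or CCDC200 on chromosome 17, and all of those overlapped a caSmad3 peak. The share over all merged sites was not counted. A run of closely spaced peaks is one stretch of signal to a reader of these lists, and no input library was used here to show what the stretch holds without antibody.

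**Figure D1:**
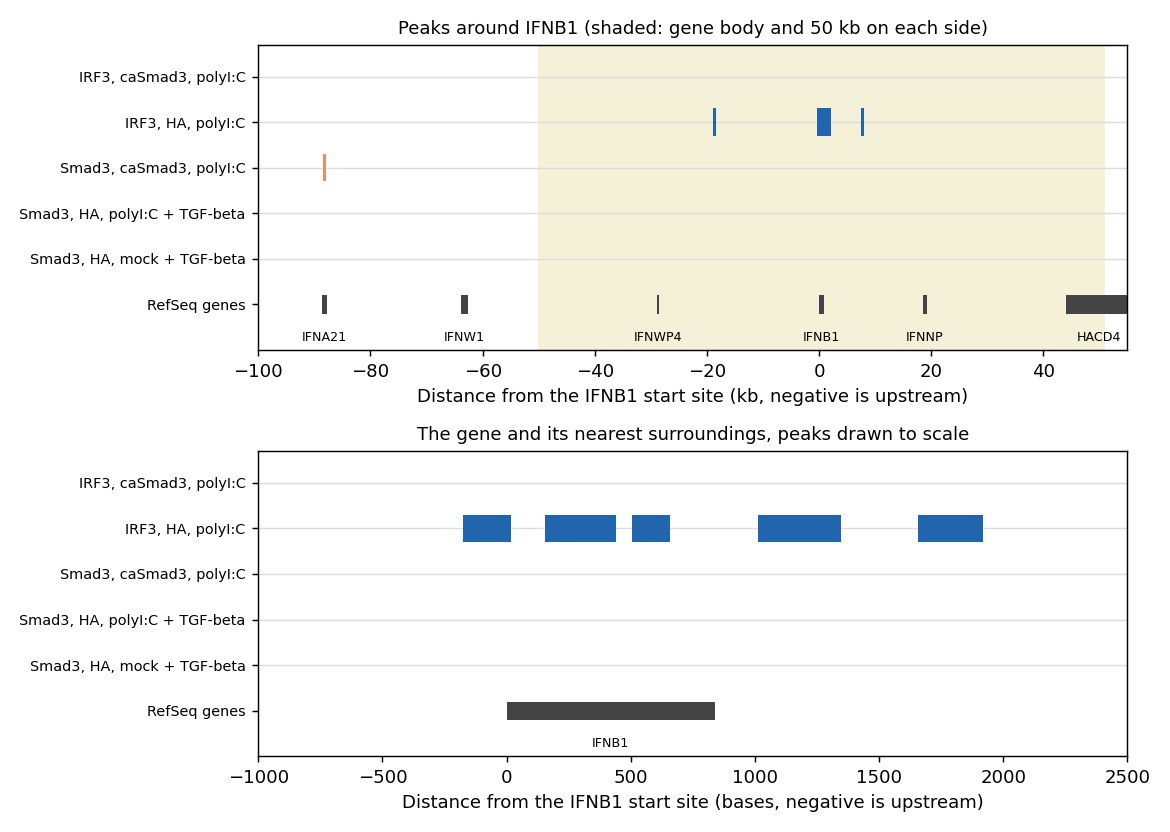
Peaks around IFNB1 in the 5 libraries, in kb (top, peaks drawn at a least width so that they can be seen) and in bases (bottom, to scale) from the start site, with negative values upstream. Only the IRF3 library of HA cells has bars inside the shaded 50 kb, with 5 of the 7 between -177 and 1919. The Smad3 bar of caSmad3 cells lies outside it, over IFNA21.

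None of the 7 peaks had a counterpart nearby in caSmad3 cells. The IRF3 peaks of that list nearest to IFNB1 lay 393 kb below the gene (20684129 to 20684314) and 257 kb above it (21335194 to 21335434). Between 50 kb and 1 Mb from IFNB1 there were 10 IRF3 peaks in caSmad3 cells and 5 in HA cells. Among all IRF3 peaks of HA cells, 17.2% overlapped no peak of caSmad3 cells. Of the 2540 peaks at least as wide as the narrowest one at IFNB1, 88.9% overlapped a caSmad3 peak (95% Clopper-Pearson interval 87.6 to 90.1). Of the 681 at least as wide as the widest one at IFNB1, 93.7% did so (91.6 to 95.4). Intervals cover counting error only and treat neighbouring peaks as independent. The part of peak width in the lack of counterparts at IFNB1 was not tested.

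The IFNB1 promoter peak lay wholly inside the 300 bases that RefSeq's table gives for the promoter, 250 before and 50 after the start. In 15842 protein-coding genes with such a window, an IRF3 peak touched it in 29.1% in caSmad3 cells and 15.2% in HA cells. Of the 4 interferon genes, 0 had one in caSmad3 cells and 2 had one in HA cells, IFNB1 and IFNL1. Of the 2411 genes with such a peak in HA cells, 7.59% had none in caSmad3 cells.

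In the IFNB1 window the shorter IRF motif AANNGAAA matched at -89 to -82 and at -76 to -69. The NF-kB motif matched at -66 to -57, so that the 3 matches stood within 33 bases, and all lay inside the HA peak. The full IRF core was not in this window. The AP-1 motif TGANTCA and the Smad motifs CAGACA and GGCGCC were not in it either. Only exact matches to these patterns were sought, so a site of the ATF2/c-Jun dimer that differs from TGANTCA would have been missed. Both strands were searched. Over 22182 promoter windows of protein-coding genes, 19.3% held the shorter IRF motif, 6.96% the NF-kB motif and 3.17% the IRF core. A core match always contains the shorter motif, so the IRF counts overlap.

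IFNL1 (gene ID 282618, chr19:39296407-39298673, plus strand) had 1 IRF3 peak within 50 kb in caSmad3 cells and 2 in HA cells. It encodes interferon lambda 1, also called IL-29. Over the genes of chromosome 19, 74.3% had an IRF3 peak within 50 kb in caSmad3 cells and 49.4% in HA cells. The peak found in HA cells alone lay in the promoter, from -225 to -120 (39296182 to 39296287). It was narrow, with 106 bases, where the narrowest peak of the list had 99 and 13.0% of its peaks were narrower. Of the 565 HA peaks no wider than this one, 67.3% overlapped a caSmad3 peak (63.2 to 71.1), against the 82.8% of all HA peaks. The part of peak width in the lack of a caSmad3 counterpart at IFNL1 was not tested.

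The nearest IRF3 peak of caSmad3 cells was 45559 bases away from the IFNL1 promoter peak. That peak was the one counted for IFNL1 in caSmad3 cells, 43.2 kb past the gene end, and HA cells had one at the same place. In caSmad3 cells it measured 176 bases (39341846 to 39342021) and in HA cells 127 bases (39341890 to 39342016), and the HA peak lay wholly inside the other. Counted from the start of SAMD4B it ran from -575 to -400 in caSmad3 cells and from -531 to -405 in HA cells. SAMD4B encodes a sterile alpha motif protein. Only distance links this peak to IFNL1, as it does the outer peaks to IFNB1, so it stays counted under the rule. Without it IFNL1 would have 0 peaks in caSmad3 cells and the promoter peak in HA cells.

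IFNL2 (gene ID 282616, chr19:39268396-39270188, plus strand) had 0 IRF3 peaks within 50 kb in caSmad3 cells and 1 in HA cells, which was the IFNL1 promoter peak 26.0 kb away. IFNL3 (gene ID 282617, chr19:39243455-39245250, minus strand) had 0 in both. The IFNL1 promoter peak was 50.9 kb from IFNL3 and so just outside the window, while the peak near SAMD4B at 43.2 kb from IFNL1 was just inside. IFNL2 and IFNL3 encode interferons lambda 2 and 3. Neither had any peak in its body, in its promoter window or within 10 kb in either IRF3 library. The same held for their neighbours IFNL4, NCCRP1, SYCN and LRFN1.

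**Figure D2:**
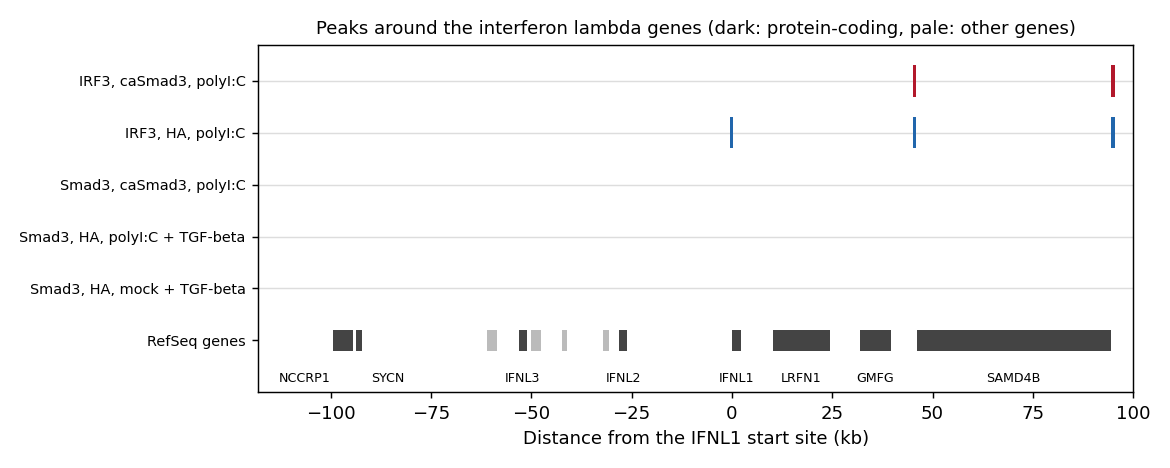
Peaks around the interferon lambda genes in the 5 libraries, by distance in kb from the IFNL1 start site, with peaks drawn at a least width. The bar at IFNL1 is found in the IRF3 library of HA cells alone, and the bars at 45 kb and 95 kb are found in both IRF3 libraries.

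The 3 lambda promoters all held the IRF core. In IFNL1 it matched at -214 to -205 and again, overlapping, at -208 to -199, both inside the HA peak. In IFNL2 and in IFNL3 it matched once, at -176 to -167. The core was thus present with a peak in IFNL1 and without one in IFNL2 and IFNL3, whose windows are near copies of each other. The part of the core in the presence of a peak was not tested. The shorter IRF motif also matched at -74 to -67 in IFNL1, outside the peak, and at -70 to -63 in IFNL2 and IFNL3. The NF-kB motif was in none of the 3 windows. The Smad motif CAGACA matched at 14 to 19 in IFNL2 and IFNL3, and 15.2% of all windows held it.

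The IFNL2 and IFNL3 windows were identical at 299 of 300 bases, with 269 identical bases in a row. The labels do not say how reads that match both copies were treated. Its part in the lack of a peak at either gene was not tested.

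**Figure D3:**
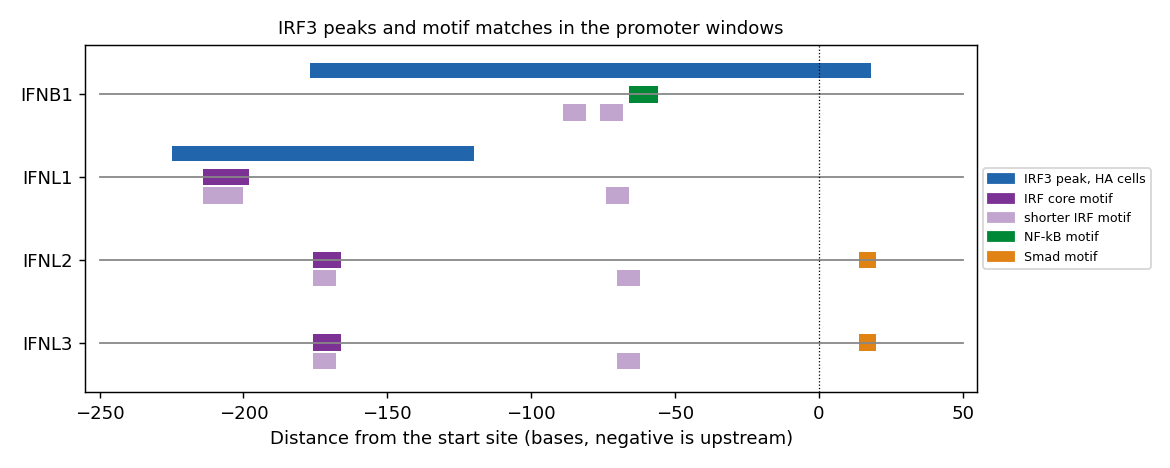
Promoter windows of the 4 genes, by distance in bases from the start site, with the IRF3 peaks of HA cells above each line and motif matches on or below it. The IFNB1 peak covers its 3 matches, the IFNL1 peak covers the IRF core, and IFNL2 and IFNL3 have the core without a peak. No other library has a peak in these windows.

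Smad3 had no peak within 50 kb of any of the 4 genes. Over all protein-coding genes, one was found for 33.8% in caSmad3 cells, 5.24% in HA cells after polyI:C and 2.04% in HA cells after mock transfection. A promoter window was touched by a Smad3 peak for 8.74% of genes in caSmad3 cells, 0.682% in HA cells after polyI:C and 0.133% in HA cells after mock transfection. Against these shares, 0 of 4 genes says little for any Smad3 library, and least for those of HA cells. The lambda genes also lie close together, with overlapping windows. The nearest Smad3 peak to IFNB1 was 88.1 kb away in caSmad3 cells, 514 kb in HA cells after polyI:C and 1160 kb in HA cells after mock transfection. That of caSmad3 cells was 105 bases wide and lay inside IFNA21, an interferon alpha gene of the same cluster (21166075 to 21166179). For IFNL1 the nearest Smad3 peak was 105 kb away in caSmad3 cells and 639 kb in HA cells after polyI:C.

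Between 50 kb and 1 Mb from IFNB1 lay 19 Smad3 peaks in caSmad3 cells, 1 in HA cells after polyI:C and 0 after mock transfection. Around IFNL1 to IFNL3 there were 9 in caSmad3 cells, 1 in HA cells after polyI:C and 0 after mock transfection.

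Genes with a pattern like that of IFNB1 were sought as protein-coding genes with 0 IRF3 peaks within 10 kb in caSmad3 cells and at least 6 in HA cells. In caSmad3 cells 40.5% of all genes had an IRF3 peak at that distance and in HA cells 23.5%, and 6.42% of the genes with one in HA cells had none in caSmad3 cells. IFNB1 had 0 in caSmad3 cells and 6 in HA cells, and 20 genes (0.0998%) had at least 6 in HA cells. Besides IFNB1, 3 of the 20 had 0 in caSmad3 cells, IFIT2 with 8 HA peaks, IFIT3 with 9 and LIPA with 23. LIPA, a lysosomal lipase gene, spans IFIT2 and IFIT3 in RefSeq (chr10:89213572-89414679) and counts their peaks. The likeness therefore rests on IFNB1 and on 1 other locus, which encodes interferon-induced antiviral proteins that bind viral RNA. Among the 20 were also the immediate early genes JUN, with 8 peaks in caSmad3 cells and 7 in HA cells, and CCN1, with 6 in caSmad3 cells and 7 in HA cells.

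The other type I interferon genes had no IRF3 peak within 10 kb. Of 16 such genes (IFNA1 to IFNA21, IFNW1, IFNE and IFNK), 5 had an IRF3 peak within 50 kb in caSmad3 cells (57.1% of all genes) and 1 in HA cells (37.6% of all genes). Over the genes of chromosome 9 these shares were 67.1% in caSmad3 cells and 47.0% in HA cells. The 1 in HA cells was IFNW1, through the upstream peak of IFNB1. Of the 5 in caSmad3 cells, IFNA2, IFNA5, IFNA6 and IFNA13 shared a single peak of 241 bases (21335194 to 21335434) over KLHL9, a ubiquitin ligase adaptor gene inside the cluster. Smad3 in caSmad3 cells had a peak of 299 bases at the same place (21335122 to 21335420). With that peak and the one inside IFNA21, 9 of the 16 had a Smad3 peak within 50 kb there. The share was 33.8% over all protein-coding genes and 54.1% over those of chromosome 9, so that 9 of 16 was close to the chromosome's own background.

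Of 8 genes of the interferon receptor pathway, 6 had an IRF3 peak within 50 kb in caSmad3 cells, where 57.1% of all genes had one. In HA cells 3 of the 8 had one, against 37.6% of all genes, which is close to that background. TYK2, a receptor kinase, had 3 IRF3 peaks in caSmad3 cells and 2 in HA cells, and a peak of 561 bases over its start in caSmad3 cells overlapped one of 122 bases in HA cells. IRF9, a DNA-binding subunit of the complex that interferon receptors activate, had 9 IRF3 peaks within 50 kb in caSmad3 cells and 6 in HA cells. An HA peak of 147 bases over its start (24161253 to 24161399) overlapped no caSmad3 peak, which held for 17.2% of all HA peaks. IFNLR1, the receptor chain specific to interferon lambda, and IFNAR2 had no IRF3 peak within 50 kb in either.

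Among 10 factors that act on the IFNB1 enhancer, 8 had an IRF3 peak within 50 kb in caSmad3 cells (57.1% of all genes) and 5 in HA cells (37.6% of all genes). JUN had a peak of 602 bases over its start in caSmad3 cells and one of 594 bases in HA cells. NFKB1, HMGA1 and the acetyltransferase gene EP300 had a peak over the start in caSmad3 cells and 0 peaks within 50 kb in HA cells. The share of all genes with a peak in caSmad3 cells and none in HA cells was not counted. The caSmad3 list was the longer, with 8067 IRF3 peaks against 4125. IRF7, which extends the interferon response, had 0 in caSmad3 cells and a peak of 159 bases over its upper end in HA cells (615867 to 616025). Of all genes with a peak within 50 kb in HA cells, 4.4% had none in caSmad3 cells. IRF1 had 2 peaks in each, and a peak of 296 bases over its start in HA cells overlapped one of caSmad3 cells. The IRF3 gene had a peak of 576 bases in caSmad3 cells and one of 238 bases in HA cells at its upper end.

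Of 11 activators of IRF3, 4 had an IRF3 peak within 50 kb in caSmad3 cells (57.1% of all genes) and 5 in HA cells (37.6% of all genes). RIGI and IFIH1, the cytoplasmic sensors of double-stranded RNA, had peaks of 618 and 342 bases over their starts in HA cells, with no overlapping peak in caSmad3 cells. Among all IRF3 peaks of HA cells, 17.2% had no such overlap. CGAS, a DNA sensor, had 0 in caSmad3 cells and 1 in HA cells, while MAVS, the adaptor of both RNA sensors, had 8 in caSmad3 cells and 1 in HA cells. Within 10 kb MAVS had only 2 in caSmad3 cells and 1 in HA cells. TBK1, a kinase of IRF3, had 1 in caSmad3 cells and 0 in HA cells. The median number of peaks within 50 kb was 1 over all protein-coding genes in caSmad3 cells and 0 in HA cells. For the enhancer factors it was 2 in caSmad3 cells and 0.5 in HA cells, and for the receptor pathway 1 in caSmad3 cells and 0 in HA cells. For the activators and the other type I genes it was 0 in both.

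**Figure D4:**
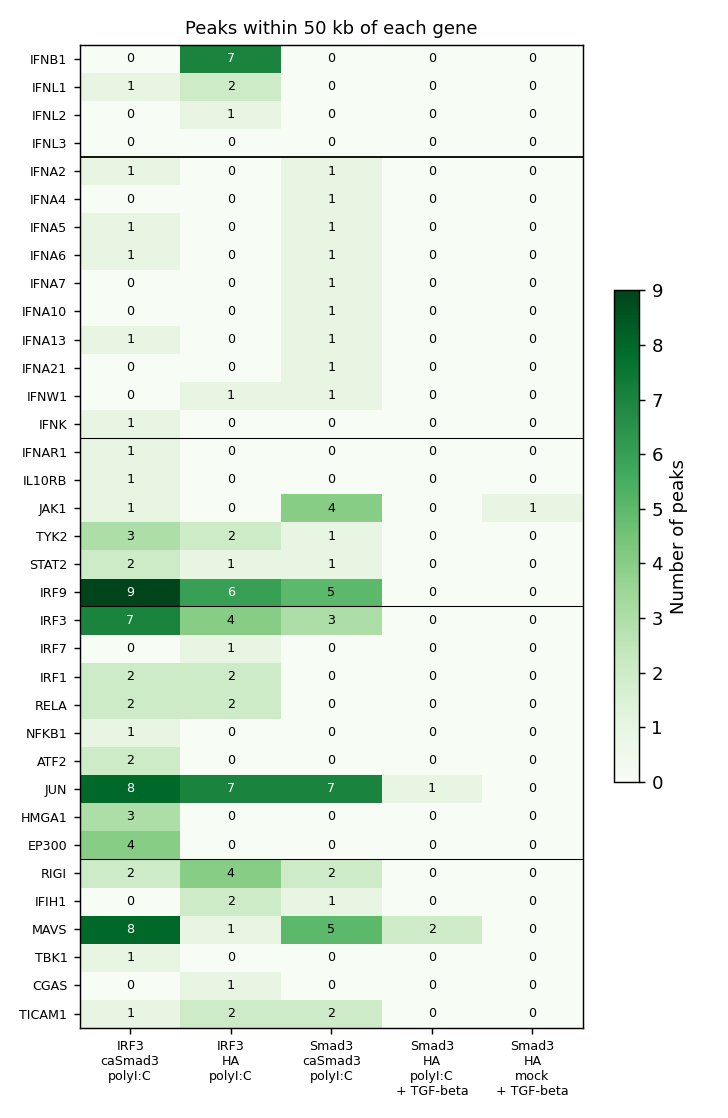
Number of peaks within 50 kb of each gene (rows) in the 5 libraries (columns), for IFNB1, IFNL1, IFNL2 and IFNL3 on top and then the listed type I interferon genes, receptor pathway, enhancer factors and IRF3 activators that had any. IFNB1 has 0 in caSmad3 cells and 7 in HA cells, while JUN has 8 in caSmad3 cells and 7 in HA cells.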

How the data were processed

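Antibodies to IRF3 or Smad3 were used for ChIP, and libraries had 15 PCR cycles, per the labels' protocols. The submitters' processing notes name Bowtie2 (2.2.2.6), MACS2 (2.1.0) and the genome build hg38. No peak threshold, input control or rule for duplicate reads is given in these sources. The authors deposited 1 list of peak positions per library, with no score, fold or read count, so strength and depth are unknown.

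Starts were turned to 1-based positions. Genes and starts came from RefSeq tables of GRCh38.p14, and strand from its promoter table. Distance was measured between the nearest bases of peak and gene, and 1 common base made 2 peaks shared. A gene was called near a peak within 50 kb. The 4 lists held 45 genes, all matched, and a further gene is not reported here. Named genes were the 4 interferon genes, their peaks and neighbours, list genes with an IRF3 peak over a gene end, and genes with a pattern like that of IFNB1. CGAS, MAVS, TBK1, IFNLR1, IFNAR2, CCN1, KLHL9 and the interferon alpha genes were named after their values were seen. The members and lists were chosen with earlier results of these data known. Counting was checked on simulated peaks against bedtools. Python 3.11.15, pandas 2.3.3 and scipy 1.17.1 were used.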

Additional observations from a re-analysis of the deposited data

How the results depend on the processing

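Of 166 values recomputed under other settings, 132 stayed within 1.5 times the reported count and 34 did not, and the cause was not tested beyond what each setting counts. Many of the 132 were counts of 0 that stayed 0. A count of 0 near a gene could change only in the window of 100 kb, so its agreement elsewhere was fixed in advance. IFNB1 had 0 IRF3 peaks in caSmad3 cells under all 5 settings, of which only the 100 kb window could have differed. In HA cells its 7 peaks made 3 sites when merged, and within 100 kb it had 1 Smad3 peak in caSmad3 cells. IFNL1 in caSmad3 cells had 0 IRF3 peaks within 10 kb, 2 within 100 kb and 0 among peaks at least as wide as the library's median. In HA cells it had 1 within 10 kb and 0 among those wider peaks. IFNL2 had 1 in caSmad3 cells within 100 kb, and in HA cells 0 within 10 kb, 2 within 100 kb and 0 among wider peaks. IFNL3 had 1 in caSmad3 cells and 2 in HA cells within 100 kb. Of the 9 HA peaks near the 4 genes, 1 overlapped a caSmad3 peak, whereas 82.8% of all HA peaks did. Of these 9, 7 were at IFNB1, and neighbouring peaks are not independent. Among wider peaks 0 near the 4 genes overlapped one, and the share over all wider peaks was not counted. The only caSmad3 peak is below its library's median width, so the reverse could not be computed there.

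Over all protein-coding genes, an IRF3 peak within 10 kb was found for 40.5% in caSmad3 cells and 23.5% in HA cells. Shares over all genes were not counted for the other settings or for Smad3 within 10 kb. List counts under those settings therefore have no background beside them, and neighbouring genes share peaks. For the 16 type I genes, IRF3 counts in caSmad3 cells were 0 within 10 kb and 8 within 100 kb. In HA cells they were 0 within 10 kb, 3 within 100 kb and 0 with wider peaks. Smad3 counts in caSmad3 cells were 1 within 10 kb, 14 within 100 kb and 4 with wider peaks. Receptor pathway genes near Smad3 in caSmad3 cells were 1 within 10 kb and 2 with wider peaks, and in mock-transfected HA cells 0 with wider peaks. Enhancer factors near IRF3 were 3 in both libraries with wider peaks. Near Smad3 they were 1 within 10 kb and 4 within 100 kb in caSmad3 cells, and 1 within 100 kb in mock-transfected HA cells. Activators were 2 near IRF3 and 2 near Smad3 within 10 kb in caSmad3 cells, and 3 near IRF3 with wider peaks in HA cells. The IRF core lay inside an HA peak for 1 of the 4 genes and the shorter motif for 2. No paired analysis was possible because each group holds 1 library.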

Other observations

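Across the 22182 promoter windows, the IRF core of the lambda promoters was held by 3.03% of the 2472 windows with an IRF3 peak in both libraries (95% Clopper-Pearson interval 2.39 to 3.79). It was held by 2.11% of the 2791 windows with one in caSmad3 cells alone (1.61 to 2.72) and by 16.3% of the 215 windows with one in HA cells alone (11.6 to 21.9), among them that of IFNL1. The IFNB1 window was also among the 215 but lacked the core. The shorter IRF motif was held by 15.6%, 14.7% and 36.3% of these windows in the same order. For the NF-kB motif the shares were 7.65%, 8.56% and 12.6%. Both genes were selected on these same peaks. Windows of neighbouring or duplicated starts are not independent, and these shares come from 1 pair of libraries without a test of the difference between them.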
